A study of Mus musculus with 8 samples.

Results

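Mouse chromosome 2 is described here gene by gene in parental Ba/F3 cells and in transformed ones labelled with a mutant splicing factor. The genes were those that the deposited count table holds on chromosome 2 (GRCm38 coordinates) and whose mean level over the 8 libraries was at least 1 CPM (counts scaled to the library total). This rule took 1123 of the 3797 chromosome 2 genes of the table, of which 1499 had 0 counts in all libraries, and it compares with 14011 genes past the same minimum among all 53465. The genes closest to the minimum were Gm13882 at 1.00005 and Gm13481 at 1.002 CPM on the inside, and 4930518I15Rik at 0.999 and Alkbh3os1 at 0.985 CPM on the outside. Of the 1123 genes, 864 were annotated as protein coding and 184 as processed pseudogenes.

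PolyA RNA was sequenced from Ba/F3, an immortalized mouse pro-B cell line of C3H strain background. The parental group (Parental_1 to Parental_3) carried wild-type U2AF35, and the transformed group (Transformed_4 to Transformed_8) is labelled with U2AF35 carrying S34F, an amino-acid change in this small subunit of U2AF, the complex that binds 3′ splice sites. All 8 libraries came from the same cell line. The labels do not give the way U2AF35(S34F) was introduced, nor whether its libraries are separate cultures, clones or repeats of 1 culture. A p-value therefore reflects the spread among these libraries alone, and that spread may be technical.

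Chromosome 2 was singled out with the contrast of transformed and parental libraries already known, so its members were in effect chosen by their log2 CPM in these same libraries, and the levels are given as a description with no test of the chromosome as a whole. A chromosome carries genes of unrelated function side by side, and the median over neighbouring genes shows a shift that those genes have in common. A processed pseudogene is an inserted copy of a spliced transcript, and reads of its parent gene, which usually lies elsewhere in the genome, can be counted in it. Among the genes of chromosome 2 are those of the interleukin-2 receptor alpha chain, the replication clamp PCNA, beta-2 microglobulin and many regulators of cell division.

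Library depth ran from 36122062 counts in Transformed_7 to 50305573 in Parental_1. U2af1, the gene of U2AF35, was at 91.7 ± 6.47 CPM in parental libraries (SD, n = 3) and 130.5 ± 24.4 CPM in transformed ones (SD, n = 5), with Transformed_7 (92.0 CPM) inside the parental range. Gene counts do not separate an introduced copy from the endogenous gene. Of 15 pro-B and early B cell markers, 13 were under 1 CPM on average, and Il7r, Rag1 and Blk had 0 counts in every library, while Cd79a was counted in each of the 8. All 6 markers of the IL-3 receptor and leucocyte list were above 1 CPM. In bulk RNA, fewer cells of a type and less RNA per cell cannot be told apart.

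The promoters of 4 genes at the ends of the response are shown because their transcripts differed widely between the libraries. They cover the 250 bases upstream of the RefSeq start (GRCm38.p6), 5′ to 3′ on the gene's strand. Capitals mark matches on either strand to 4 motifs. The TATA box was searched as TATAAA. For the GC box the letters were GGGCGG, and for the E-box CACGTG. A loose form of the NF-kB site was searched as GGGNNNNNCC. Cytip (chr2:58160123-58160372, minus strand) was all but absent from the transformed libraries, and its RefSeq start lies 35410 bases inside the gene as the GENCODE annotation draws it. Il1a (chr2:129309973-129310222, minus strand) and Cybrd1 (chr2:71117804-71118053, plus strand) were higher in transformed libraries. Il2ra (chr2:11642542-11642791, plus strand), chosen after its values were seen, had the widest difference between Transformed_4 and the other transformed libraries.
Cytip: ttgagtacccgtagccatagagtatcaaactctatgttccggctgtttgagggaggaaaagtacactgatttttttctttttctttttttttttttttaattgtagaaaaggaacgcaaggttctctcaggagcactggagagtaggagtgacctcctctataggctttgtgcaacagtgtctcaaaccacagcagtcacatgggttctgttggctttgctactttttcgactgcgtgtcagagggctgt
Il1a: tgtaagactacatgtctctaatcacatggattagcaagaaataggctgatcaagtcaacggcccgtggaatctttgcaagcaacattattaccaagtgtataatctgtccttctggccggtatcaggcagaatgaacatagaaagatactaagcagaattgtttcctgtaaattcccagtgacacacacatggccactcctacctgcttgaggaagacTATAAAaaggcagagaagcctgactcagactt
Cybrd1: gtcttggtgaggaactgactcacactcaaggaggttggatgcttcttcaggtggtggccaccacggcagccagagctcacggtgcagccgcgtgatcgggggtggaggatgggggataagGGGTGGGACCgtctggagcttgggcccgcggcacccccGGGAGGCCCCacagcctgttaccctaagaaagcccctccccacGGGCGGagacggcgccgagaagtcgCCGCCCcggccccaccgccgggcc
Il2ra: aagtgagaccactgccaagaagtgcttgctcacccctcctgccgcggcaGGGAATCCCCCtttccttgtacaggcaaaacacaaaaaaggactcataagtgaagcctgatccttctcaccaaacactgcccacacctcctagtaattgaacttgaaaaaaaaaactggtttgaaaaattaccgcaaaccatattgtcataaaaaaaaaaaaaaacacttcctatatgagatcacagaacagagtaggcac
Il1a held 1 TATA box, Cybrd1 had 2 GC boxes and 2 NF-kB motif matches, Il2ra had 2 overlapping NF-kB motif matches, and Cytip held no match in this window. Over all 32851 RefSeq promoters of this length, 12.4% held the TATA box, 32.7% the GC box, 6.02% the E-box and 45.8% the NF-kB motif. A match is a run of letters and no measured binding site.

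Chromosome 2 was lower in 4 of the 5 transformed libraries but not in the fifth, Transformed_4, which lay slightly above all 3 parental ones. The measure is log2 CPM of a library minus the mean log2 CPM of the 3 parental libraries, taken for each gene, with CPM scaled by TMM factors. Its median over the 1123 genes was -0.22 in Transformed_5, -0.25 in Transformed_6, -0.26 in Transformed_7 and -0.25 in Transformed_8. Transformed_4 had a median of 0.058. These medians put the middle gene at 86.1%, 84.4%, 83.7% and 84.3% of its parental level in Transformed_5 to Transformed_8, and at 104.1% in Transformed_4. The parental libraries themselves, which the reference contains, had medians of 0.012, 0.027 and -0.050, and against the mean of the other parental libraries Parental_3 was at -0.076. Over the 12888 genes of the other chromosomes, the medians of the 8 libraries lay between -0.011 and 0.031. Chromosome 2 also took up less of the counts in Transformed_5 to Transformed_8. Its genes held 7.02%, 6.98% and 6.70% of all counts in Parental_1 to Parental_3 and 7.07% in Transformed_4. In Transformed_5 to Transformed_8 they held 5.92%, 5.84%, 5.96% and 5.89%.

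The libraries were sequenced in 2 lanes, with Parental_1, Parental_3, Transformed_5 and Transformed_8 in lane 6 and the other 4 in lane 7. Against the parental libraries of the same lane, the chromosome 2 median was -0.21 in Transformed_5 and -0.22 in Transformed_8 for lane 6. In lane 7 it was 0.024 in Transformed_4, -0.27 in Transformed_6 and -0.28 in Transformed_7, each against 1 parental library. The contrast between Transformed_4 and the other transformed libraries therefore appeared within lane 7 as well.

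Among 20 chromosomes, chromosome 2 ranked 2 from the lowest in each of Transformed_5 to Transformed_8, after chromosome 19. The 2 chromosomes differed in Transformed_4: chromosome 19 was at -0.29 there and from -0.41 to -0.31 in the other 4, whereas chromosome 2 ranked 17 from the lowest in Transformed_4. Chromosome 18 had the opposite order, with -0.26 in Transformed_4 and 0.069 to 0.13 in Transformed_5 to Transformed_8. Chromosomes 14 and 15 were high in Transformed_4, at 0.31 and 0.21, so this library stood apart on several chromosomes.

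**Figure D1:**
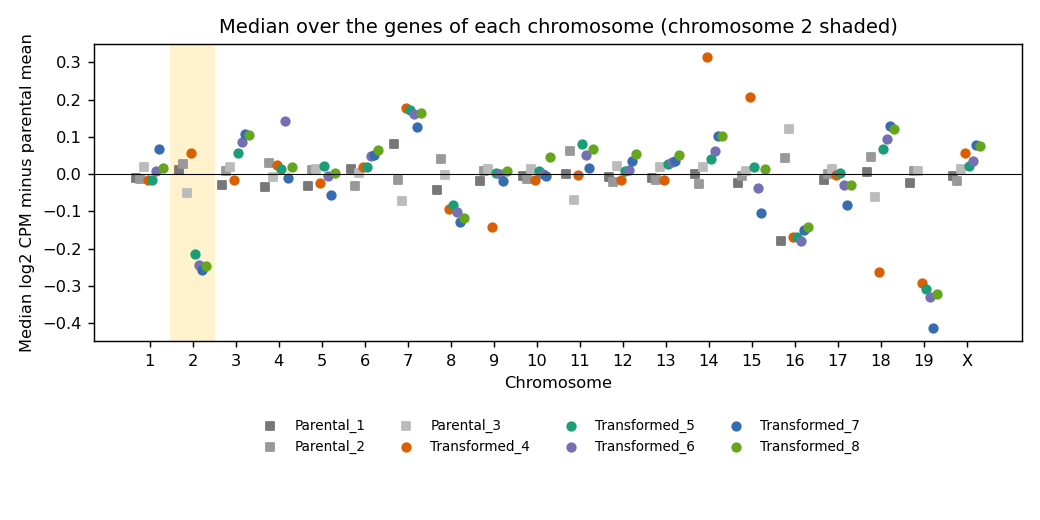
Median log2 CPM minus the parental mean (vertical axis) over the genes of each chromosome (horizontal axis), for 3 parental libraries (squares) and 5 transformed libraries (circles), chromosome 2 shaded. On chromosome 2, Transformed_5 to Transformed_8 lie between -0.26 and -0.22 and Transformed_4 lies at 0.058, just above the parental libraries.

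Protein-coding genes carried the lower level, and processed pseudogenes did not. The chromosome 2 median of protein-coding genes was -0.27, -0.29, -0.32 and -0.29 in Transformed_5 to Transformed_8 and 0.056 in Transformed_4 (n = 864 genes). The middle protein-coding gene was thus at 82.9%, 81.8%, 80.0% and 81.8% of its parental level in the 4 libraries. Processed pseudogenes of chromosome 2 had medians of 0.087, 0.013, -0.022 and 0.12 in Transformed_5 to Transformed_8 (n = 184), close to the 0.082, 0.039, 0.0013 and 0.14 of the 2108 processed pseudogenes on other chromosomes. The difference between the gene types was not tested, and no source used here says how the authors treated reads that map to several places. The remaining 75 genes of other types, such as lincRNA and antisense genes, were lower too. Their medians were -0.38, -0.35, -0.21 and -0.53 in Transformed_5 to Transformed_8 and 0.046 in Transformed_4. The 1118 genes of such types on other chromosomes were at -0.079, -0.039, 0.017 and -0.20 in the same 4 libraries, so part of the low value in Transformed_8 was not particular to chromosome 2.

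**Figure D2:**
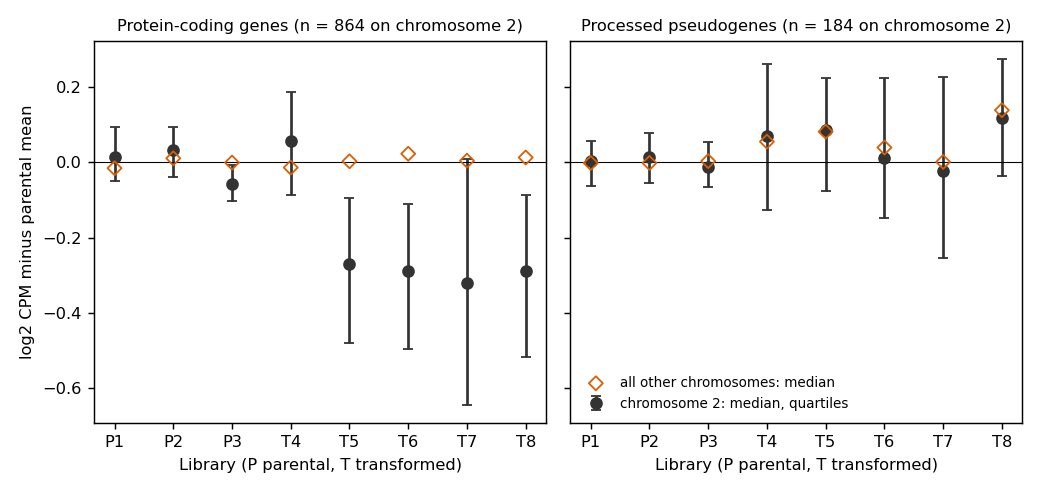
Log2 CPM minus the parental mean (vertical axis) in each library (horizontal axis) for protein-coding genes (left) and processed pseudogenes (right) of chromosome 2, as median (dot) and quartiles (bar), with the median over all other chromosomes as an open diamond. Protein-coding genes of chromosome 2 lie at medians of -0.32 to -0.27 in Transformed_5 to Transformed_8, while the pseudogenes lie beside those of other chromosomes.

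Across genes of different level, base composition and length, chromosome 2 kept its place below the other chromosomes in Transformed_5 to Transformed_8. When the protein-coding genes of the genome were cut into 3 equal groups by mean CPM, chromosome 2 genes lay below those of other chromosomes in each group, with differences of medians from -0.36 to -0.25 over Transformed_5 to Transformed_8. The same differences ran from -0.37 to -0.26 over groups of transcript GC content and from -0.34 to -0.26 over groups of exon length. In Transformed_4 every one of these 9 differences was positive, from 0.044 to 0.12.

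The shift ran from one end of the chromosome to the other. In consecutive 10 Mb windows, all of Transformed_5 to Transformed_8 had a median below 0 in 17 of 19 windows, and below each parental library in 16. The median of Transformed_4 was within the parental range in 7 of the 19. Among protein-coding genes alone, a view added after seeing the data, all of Transformed_5 to Transformed_8 were below 0 in 18 of 19 windows. Transformed_4 lay above all 4 in 19 of 19. Window medians over all genes also varied with the windows' median GC content, with Pearson's r over the 19 windows of -0.37, -0.62, -0.60 and -0.53 in Transformed_5 to Transformed_8, 0.014 in Transformed_4, and -0.26, 0.50 and -0.23 in Parental_1 to Parental_3. Over protein-coding genes alone r was -0.13, -0.48, -0.66 and -0.48 in Transformed_5 to Transformed_8. The windows share each library's depth and base composition, and with the trend over GC content removed, an alternative added after seeing the data, the chromosome 2 median was -0.21, -0.25, -0.25 and -0.24 in these 4 libraries. The window from 90 to 100 Mb was among the deepest, with medians of -0.28, -0.36, -0.35 and -0.32 in Transformed_5 to Transformed_8 (51 genes) and 0.12 in Transformed_4. The window from 20 to 30 Mb, with 116 genes, was at -0.25, -0.32, -0.39 and -0.29, and at 0.0073 in Transformed_4. The shallowest was that from 80 to 90 Mb, at -0.031, -0.073, -0.016 and 0.058 (44 genes). There the protein-coding genes alone were at -0.10, -0.12, -0.031 and -0.089 (30 genes). The window from 40 to 50 Mb held only 14 genes, and its Transformed_7 median of 0.17 was the other value above 0. In running medians over 51 protein-coding genes, Transformed_5 to Transformed_8 were below 0 at all 814 positions, and Transformed_4 was above all 4 of them at every position.

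**Figure D3:**
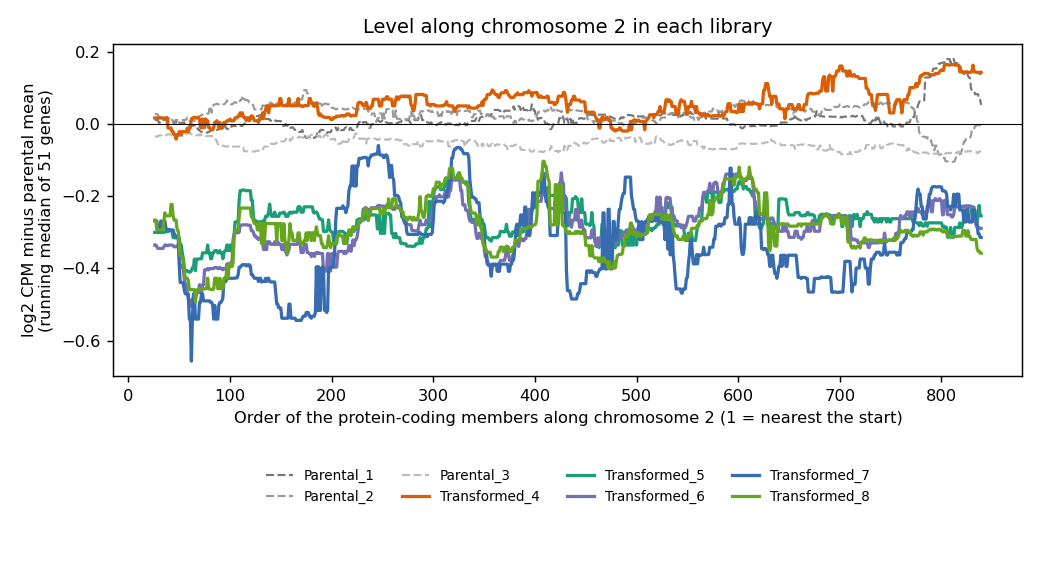
Running median over 51 neighbouring protein-coding genes of log2 CPM minus the parental mean (vertical axis) against gene order along chromosome 2 (horizontal axis), 1 line for each library (parental dashed). Transformed_5 to Transformed_8 stay below 0 along the whole chromosome, between -0.66 and -0.059, and Transformed_4 stays between -0.041 and 0.17.

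No transformed library had a large step along chromosome 2. The position that best splits the ordered genes into a left and a right side gave a difference of medians, right minus left, of 0.10, -0.058, 0.098, 0.13 and -0.095 in Transformed_4 to Transformed_8. The same search found steps of up to 0.53 on chromosome 16 in Transformed_5. The median step of the other chromosomes, without regard to sign, was 0.11, 0.10, 0.096, 0.19 and 0.13 in Transformed_4 to Transformed_8. The positions also differed: between Stom and the pseudogene Gm13443 for Transformed_6, between Mapkap1 and the pseudogene Gm13408 for Transformed_7, and far down the chromosome for Transformed_5 (between Srsf6 and Ift52) and Transformed_8 (between the pseudogenes Gm11450 and Gm11451). Parental_3 split between Rassf2 and Slc23a2 with a step of -0.026. Transformed_4 split between Stx16 and Npepl1. Parental_1 and Parental_2 both split between Zfp831 and Gm14444, by 0.14 and -0.091. In these 2 libraries the median step of the other chromosomes was smaller, at 0.033 and 0.036 without regard to sign. Gm14444 begins an array of zinc-finger genes (chr2:175010241-178078476), of which 57 members lie up to Zfp931. Over the array Parental_1 had a median of 0.19 and Transformed_4 one of 0.18, against -0.11 and -0.082 in Parental_2 and Parental_3 and -0.30 to -0.15 in Transformed_5 to Transformed_8. These genes are close copies of one another, so their single counts are uncertain.

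Single genes past the test were few, and most of them were lower. In edgeR's quasi-likelihood test with Benjamini-Hochberg adjustment over all 17733 genes tested, 38 chromosome 2 genes fell and 5 rose in the 5 transformed libraries (all 1123 were tested). Over all genes 2.10% were called lower and 0.908% higher, and since the chromosome was picked with this contrast known, nothing is read from these shares. Of the chromosome 2 genes 71.6% had a negative log2 fold change, and the median was -0.15, against 0.017 over all genes tested. DESeq2 called 131 lower and 17 higher, where 5.62% and 4.85% of all genes were called. In edgeR the count moved with the libraries used. Without Transformed_4, 319 chromosome 2 genes were called lower and 19 higher, where 9.26% and 6.25% of all genes were called. Of the 319, 297 were protein coding (34.4% of that type on chromosome 2) and 2 processed pseudogenes (1.09%). Over all genes tested of these types, 11.6% and 1.46% were called lower. Within lane 6, with 2 libraries of each group and without Transformed_4, 309 were lower and 44 higher, where 10.8% and 9.60% of all genes were called. Without Transformed_7 the counts were 78 and 14, where 4.76% and 2.87% of all genes were called. Without any other 1 library between 3 and 6 were lower and between 0 and 2 higher, and calls over all genes dropped as well. Without Parental_1, Parental_2 and Parental_3 the lower genes numbered 6, 3 and 3, where 0.354%, 0.183% and 0.116% of all genes were called lower. Higher genes numbered 1, 0 and 0 in these fits, where 0.0609%, 0.0166% and 0.0276% of all genes were called higher. Without Transformed_5, Transformed_6 and Transformed_8 the lower genes numbered 5, 5 and 6, where 0.397%, 0.329% and 0.351% of all genes were called. Higher genes there numbered 1, 1 and 2, where 0.0907%, 0.0510% and 0.0735% of all genes were called. With lane as a covariate 9 were lower and 1 higher, where 0.445% and 0.0846% of all genes were called. The counts of 0 came without Parental_2 and without Parental_3, where edgeR had 32 and 19 higher genes at an unadjusted p under 0.05 (DESeq2 called 17 with all 8 libraries). By position alone, all 5 transformed libraries lay below all 3 parental ones in 168 genes and above them in 38, where 10.4% and 8.84% of all genes did so. For Transformed_5 to Transformed_8 these numbers were 498 and 58, where 19.4% and 16.2% of all genes did so. Of the 21 called genes named here from lists or by rank, Cytip, Wipf1 and Nacc2 passed in all 13 alternative settings.

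Cytip and Wipf1 had the smallest p of the lower genes. Cytip, which binds cytohesins and restrains leucocyte adhesion (ENSMUSG00000026832, chr2:58129137-58195532), had 216, 203 and 211 counts in Parental_1 to Parental_3, then 0, 0, 0, 2 and 4 in Transformed_4 to Transformed_8. It fell from 4.30 ± 0.29 CPM (SD, n = 3) to 0.028 ± 0.040 CPM (SD, n = 5; edgeR adjusted p = 0.00250), with all 5 transformed libraries far under the parental ones. Wipf1, a partner of the actin regulator WASP (ENSMUSG00000075284, chr2:73429610-73529734), was at 145.4, 147.8 and 143.3 CPM in parental libraries and at 94.2, 80.8, 85.3, 76.8 and 85.8 CPM in Transformed_4 to Transformed_8. Its log2 fold change was -0.78 (SE 0.083, edgeR adjusted p = 0.00629), and the groups did not overlap. Vim, the intermediate filament protein vimentin (chr2:13573927-13582826), was at 801, 704 and 750 CPM in parental and 376, 446, 464, 347 and 539 CPM in transformed libraries. Its edgeR log2 fold change was -0.79 (SE 0.14, adjusted p = 0.0278). Here Transformed_4 was as low as its fellows. The 6 fibroblast and stroma markers were each under 1 CPM on average, with a summed level of 0.12 to 0.20 CPM in parental and 0.020 to 0.42 CPM in transformed libraries.

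The lower genes also included the transcription regulators Nacc2, Id1, E2f1 and Gfi1b and the zinc-finger gene Zfp831. Nacc2, a BTB-domain repressor (ENSMUSG00000026932, chr2:26055535-26123220), fell from 19.99, 20.2 and 24.1 CPM to 11.8, 9.58, 9.28, 10.2 and 9.49 CPM (edgeR log2 fold change -1.09, SE 0.12, adjusted p = 0.00660). Zfp831 fell from 7.44, 8.63 and 9.88 CPM to 4.83, 3.61, 3.48, 3.31 and 3.13 CPM (edgeR adjusted p = 0.0123). In both genes Transformed_4 was the highest of the transformed libraries and still under every parental one. Id1, an inhibitor of basic helix-loop-helix factors (chr2:152736251-152737410), fell from 78.3 ± 13.8 CPM (SD, n = 3) to 40.7 ± 6.39 CPM (SD, n = 5; edgeR adjusted p = 0.0256), and Transformed_4, at 42.7 CPM, stood in the middle of its group. E2f1, which drives entry into S phase, was at 40.0, 41.3 and 39.1 CPM in parental libraries and 32.4, 26.5, 25.1, 22.8 and 23.6 CPM in Transformed_4 to Transformed_8 (edgeR log2 fold change -0.62, SE 0.12, adjusted p = 0.0368). Gfi1b, a repressor of erythroid and megakaryocyte cells, was at 125, 95.02 and 105 CPM and then at 77.7, 65.7, 61.2, 40.9 and 60.8 CPM (edgeR adjusted p = 0.0484). As in E2f1, Transformed_4 came nearest to the parental libraries.

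The remaining named genes that fell had varied roles. Acss1, a mitochondrial acetyl-CoA synthetase, fell from 1.06, 2.62 and 2.98 CPM to at most 0.363 CPM in a transformed library (edgeR adjusted p = 0.0105). The ubiquitin ligase gene Lrsam1 was at 24.2, 24.97 and 24.4 CPM, then at 17.8 CPM in Transformed_4 and 12.7 to 13.3 CPM in the other 4 (edgeR log2 fold change -0.81, SE 0.13, adjusted p = 0.0231). Prg2, a granule protein of eosinophils, was uneven in parental libraries, at 11.3, 57.1 and 3.83 CPM, and at 1.55 CPM or less in transformed ones (edgeR adjusted p = 0.0415). Snhg7os is an antisense gene, and with the strand setting not given, its counts may include reads of the opposite strand. The other named genes that fell were Snhg7os, Adam33, Ak1, Rab22a and Slx4ip, while Dpp7 is described with its neighbours. For the 5 other than Dpp7 the edgeR adjusted p ran from 0.0207 in Snhg7os to 0.0482 in Slx4ip, and all 5 transformed libraries lay below the 3 parental ones in each.

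All 5 genes that rose did so from low or moderate levels. Cybrd1, a ferric reductase (ENSMUSG00000027015, chr2:71117923-71142926), was at 0.371, 0.260 and 0.351 CPM in parental libraries and 1.62, 1.63, 1.65, 3.34 and 2.03 CPM in Transformed_4 to Transformed_8 (edgeR log2 fold change 2.63, SE 0.32, adjusted p = 0.00972). The cytokine gene Il1a (ENSMUSG00000027399, chr2:129299610-129309972) had 11, 2 and 7 counts in Parental_1 to Parental_3 and 25, 123, 46, 99 and 59 counts in Transformed_4 to Transformed_8 (edgeR adjusted p = 0.0388). Transformed_4 was the lowest of its group for Il1a and for Cybrd1. Ccdc141, which encodes a coiled-coil protein, rose from 2.48 ± 0.19 CPM (SD, n = 3) to 5.06 ± 0.92 CPM (SD, n = 5; edgeR adjusted p = 0.0273). The annotated transcript Spata5l1 and the processed pseudogene Gm13772 rose too, with edgeR adjusted p of 0.0368 and 0.0484. In none of the 5 did the groups overlap.

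**Figure D4:**
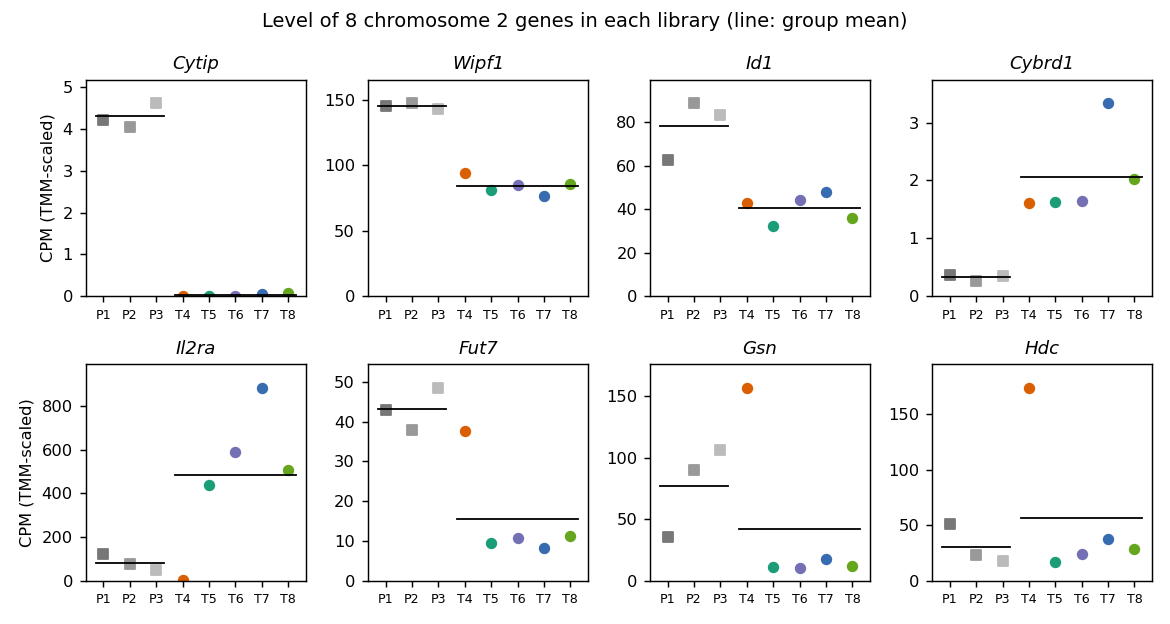
TMM-scaled CPM (vertical axes, linear from 0) of 8 chromosome 2 genes in each library (squares parental, n = 3, and circles transformed, n = 5), where a line marks each group mean. Cytip, Wipf1, Id1 and Cybrd1 separate the groups in all 5 transformed libraries, while Transformed_4 stands apart from its group for Il2ra (2.28 CPM), Fut7 (37.7 CPM), Gsn (157 CPM) and Hdc (174 CPM).

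In lists of functions the median log2 fold change was negative throughout but uneven, from -0.32 to -0.044. Of 360 symbols in 11 lists, 221 were among the 1123 genes, and 11 of these fell and 1 rose in edgeR (81 were lower without Transformed_4). Of all 1123 genes 3.38% were called lower and 0.445% higher, and 28.4% were lower without Transformed_4. Over all genes tested these shares were 2.10%, 0.908% and 9.26%. DESeq2 called 11.7% of the 1123 genes lower, against 5.62% of all genes. The lists and the choice of chromosome 2 are not independent of these data, so the counts and medians are descriptions. Cell division and chromosome segregation had 27 members, a median log2 fold change of -0.31 and 1 call, E2f1, with 14 called lower without Transformed_4. Tpx2, a spindle assembly factor, was at 271, 275 and 253 CPM in parental libraries, 254 CPM in Transformed_4 and 198, 187, 183 and 196 CPM in Transformed_5 to Transformed_8 (edgeR adjusted p = 0.0961). The microtubule polymerase Ckap5 was at 250 ± 6.24 CPM (SD, n = 3) and 202 ± 20.2 CPM (SD, n = 5; edgeR adjusted p = 0.105), and the microtubule end-binding gene Mapre1 at 194 ± 12.4 and 172 ± 12.1 CPM (edgeR adjusted p = 0.273). In Tpx2 Transformed_4 overlapped the parental libraries, and in Ckap5 it lay just below them.

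The replication and repair list had 16 members, a median of -0.17 and 1 call, Slx4ip, with 6 lower without Transformed_4. Pcna, the sliding clamp of DNA polymerases, was at 416, 399 and 380 CPM in parental libraries, 436 CPM in Transformed_4 and 295, 305, 245 and 299 CPM in Transformed_5 to Transformed_8. Its log2 fold change over all 5 was -0.34 (SE 0.16, edgeR adjusted p = 0.266), and without Transformed_4 it was -0.48 (edgeR adjusted p = 0.0153). Top1, DNA topoisomerase I, did not follow this order, with 194 ± 7.07 CPM (SD, n = 3) and 201 ± 14.4 CPM (SD, n = 5), and the histone chaperone gene Ssrp1 was at 545 ± 21.8 and 513 ± 60.5 CPM.

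Among 23 haematopoietic transcription factors the median was -0.32, the lowest of the 11 lists, and Gfi1b, Id1 and E2f1 fell. The list of splicing and 3′ end processing (22 members, median -0.13) and that of ribosome and nucleolus (19 members, median -0.044) had 0 calls with all 8 libraries, and 6 and 1 lower calls without Transformed_4. At an unadjusted p under 0.05 in edgeR, 1 splicing gene was lower, and 1 ribosome gene was lower and 1 higher, and DESeq2 called 0 in both lists. In the first, the SR protein gene Srsf6 was at 408 ± 56.1 CPM (SD, n = 3) and 382 ± 75.2 CPM (SD, n = 5). In the second, the ribosomal protein gene Rpl12 was at 488 ± 4.47 and 480 ± 55.7 CPM, and Nop56, a core protein of small nucleolar RNPs, at 371 ± 56.4 and 403 ± 39.9 CPM. These 3 genes overlapped between the groups. Proteasome and ubiquitin genes (22 members, median -0.16) had 0 calls in edgeR, with 6 lower at an unadjusted p under 0.05 and 2 lower in DESeq2, and autophagy and lysosome (16 members, median -0.27) had 1, Rab22a. Mitochondrion and metabolism had 25 members, a median of -0.20 and 2 calls, Ak1 and Acss1. Signal transduction and cytoskeleton had 29 members, a median of -0.13, and Vim and Cytip called lower with Il1a higher. Granule and immune effector genes had 12 members, a median of -0.20 and 1 call, Prg2. Haematopoietic receptors and adhesion had 13 members, a median of -0.12 and 1 call, Adam33. In that list the integrin gene Itga4 was at 461 ± 85.0 and 292 ± 63.9 CPM (edgeR adjusted p = 0.0812) and B2m, the light chain of MHC class I, at 424 ± 59.3 and 511 ± 63.6 CPM (edgeR adjusted p = 0.253).

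Set beside its 4 fellows, Transformed_4 was higher for most of the chromosome. Its log2 CPM exceeded the mean of Transformed_5 to Transformed_8 by a median of 0.31 over the 1123 genes, against -0.016 on the other chromosomes. Transformed_4 lay above all 4 in 701 genes (62.4%), where over all genes the share was 30.9%, and below all 4 in 101 genes, where it was 28.1%. Transformed_7, the library of lowest depth, lay below its 4 fellows in 472 chromosome 2 genes, where the share over all genes was 34.7%. All of Transformed_5 to Transformed_8 lay below both Transformed_4 and the 3 parental libraries in 463 genes (13.8% of all genes did so). They lay above both in 30 (10.7% of all genes).

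**Figure D5:**
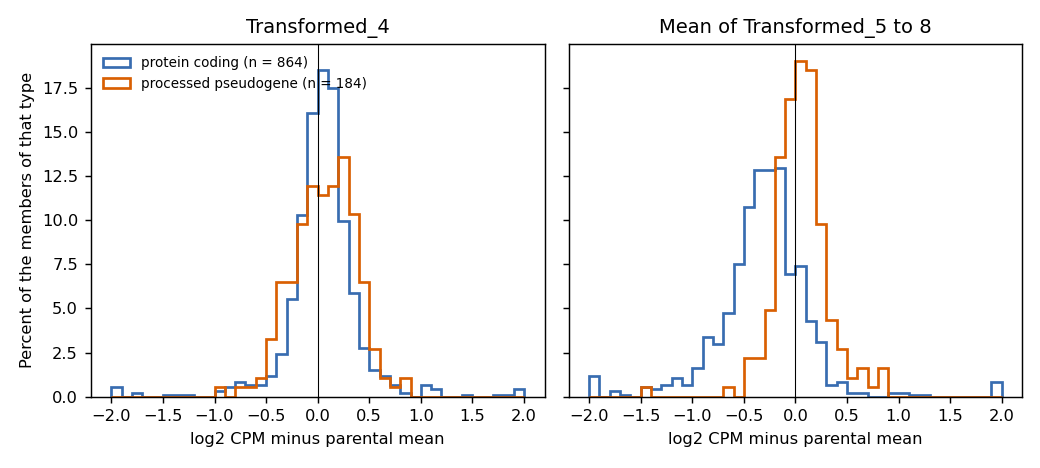
Percent of chromosome 2 genes (vertical axis) by log2 CPM minus the parental mean (horizontal axis, values beyond 2 either way in the end bars), for Transformed_4 (left) and the mean of Transformed_5 to 8 (right), by gene type. For Transformed_4 both types centre near 0 (medians 0.056 and 0.071), and for the other libraries the protein-coding genes move to the left of the processed pseudogenes.

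At a mean of 10 CPM or more, the 8 genes highest in Transformed_4 relative to its fellows had varied functions. Gsn, the actin-severing protein gelsolin, was at 35.3, 89.7 and 107 CPM in parental libraries, 157 CPM in Transformed_4 and 11.6, 10.7, 17.7 and 11.8 CPM in Transformed_5 to Transformed_8. Bmf, a pro-death BCL-2 family member, was at 44.6 CPM in Transformed_4, 9.69 to 14.7 CPM in parental libraries and 4.68 to 7.35 CPM in the other 4. Hdc, which makes histamine, was at 174 CPM in Transformed_4 against 18.0 to 51.2 CPM in parental libraries and 16.7 to 37.6 CPM in the other transformed ones. In these 3 genes Transformed_4 lay above all 7 other libraries, and for Gsn and Bmf the other 4 transformed libraries lay below the parental range. The mast cell and basophil markers, which include Hdc, summed to 1669 CPM in Transformed_4, 741 to 927 CPM in parental and 441 to 656 CPM in the other transformed libraries, with Kit and Fcer1a at 0 throughout. Gata2 made up most of each sum. It was at 1268 CPM in Transformed_4, 633 to 769 CPM in parental and 360 to 540 CPM in the other transformed libraries. Ms4a2, Cpa3, Mcpt8, Hdc and Cma1 also had their highest value in Transformed_4. The part of these markers in the values of Gsn, Bmf and Hdc was not tested.

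Ptgs1, the cyclooxygenase COX-1, was at 209 CPM in Transformed_4, 95.5 to 109 CPM in parental libraries and 27.5 to 59.6 CPM in the other 4. Col5a1, a fibrillar collagen chain, was at 174, 205 and 285 CPM in parental libraries, 118 CPM in Transformed_4 and 62.6, 30.6, 6.62 and 50.3 CPM in Transformed_5 to Transformed_8 (edgeR adjusted p = 0.132). Lgr4, a receptor for R-spondins, was at 67.4 CPM in Transformed_4, inside the parental range of 36.1 to 70.5 CPM, and at 12.5 to 27.7 CPM in the others. For each of these 3 genes Transformed_5 to Transformed_8 lay below all the other libraries.

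Fut7, a fucosyltransferase that makes selectin ligands, and its neighbour Abca2, a lipid transporter, close a dense stretch of genes that were lower in Transformed_5 to Transformed_8. Fut7 was at 42.9, 37.9 and 48.6 CPM in parental libraries, 37.7 CPM in Transformed_4 and 9.56, 10.6, 8.16 and 11.2 CPM in the other 4. Abca2 was at 354, 431, 505 and 470 CPM, then at 171, 144, 82.8 and 141 CPM. The stretch, chosen after its values were seen, runs from Tor4a to Abca2 (chr2:25192966-25448540) and holds 14 genes, all protein coding. In all 14, Transformed_5 to Transformed_8 lay below both Transformed_4 and the parental libraries. Its medians were -0.64, -0.74, -1.45 and -0.82 in Transformed_5 to Transformed_8 and -0.12 in Transformed_4. Dpp7, a lysosomal dipeptidase of this stretch, passed with all 8 libraries (23.7 ± 1.92 to 11.0 ± 2.995 CPM, SD, n = 3 and n = 5, edgeR adjusted p = 0.0331). Anapc2, a subunit of the anaphase-promoting complex, was at 158, 145 and 143 CPM, 128 CPM in Transformed_4 and 90.8, 94.0, 69.6 and 84.6 CPM in the others.

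The gene with the widest gap went against the chromosome. Il2ra, the alpha chain of the interleukin-2 receptor (ENSMUSG00000026770, chr2:11642807-11693193), was at 125, 78.0 and 47.6 CPM in parental libraries. In Transformed_4 it was at 2.28 CPM (113 counts), and in Transformed_5 to Transformed_8 at 440, 589, 885 and 505 CPM. Transformed_4 thus lay under every parental library and the other 4 lay over them, so the mean of the 5 describes none of them, and edgeR gave a log2 fold change of 2.54 (SE 1.25, adjusted p = 0.277). Without Transformed_4 the edgeR log2 fold change was 2.86 (adjusted p = 0.00518). Its neighbour Il15ra, the alpha chain of the interleukin-15 receptor, had the same order on a smaller scale. Il15ra was at 26.4, 25.7 and 25.2 CPM in parental libraries, 19.4 CPM in Transformed_4 and 37.0, 38.9, 42.4 and 36.4 CPM in the other 4. A stretch of 5 genes from Pfkfb3 to Il15ra (chr2:11471433-11734317), chosen after its values were seen, was above 0 in each of Transformed_5 to Transformed_8 and below 0 in Transformed_4 for all 5. It includes Rbm17, a splicing factor gene, at 178, 174 and 151 CPM in parental libraries, 146 CPM in Transformed_4 and 189, 192, 183 and 197 CPM in the others. The next 2 genes, Fbh1 and Ankrd16, returned to the order of the rest of the chromosome. Fbh1, a DNA helicase, was at 92.9, 88.0 and 86.2 CPM in parental libraries, 80.0 CPM in Transformed_4 and 58.0, 56.8, 58.7 and 57.6 CPM in Transformed_5 to Transformed_8.

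Other genes were named for a low log2 CPM in Transformed_4 against the mean of Transformed_5 to Transformed_8. Of these, Lcn2, Traf1 and Stard9 had their highest value in Transformed_7. For Lcn2 and Traf1 the lowest transformed library was Transformed_5, not Transformed_4. Lcn2, an iron-binding protein of neutrophil granules, was at 43.6 CPM in Transformed_4, 34.4, 75.7 and 176 CPM in Transformed_5, Transformed_6 and Transformed_8, and 1510.1 CPM in Transformed_7, against 21.7 to 53.7 CPM in parental libraries. The granulocyte and macrophage markers summed to 411 CPM in Transformed_7, 85.9 CPM in Transformed_4 and 266 to 359 CPM in parental libraries. Most of each of these sums was Adgre1, at 404 CPM in Transformed_7, 48.4 CPM in Transformed_4 and 230 to 332 CPM in parental libraries. In Transformed_7 the markers Mpo and Prtn3 lay below every parental library, with Mpo at 1.51 CPM against 6.27 to 20.4 CPM. Lyz2 lay above them, at 2.63 CPM against 0.479 to 1.53 CPM. The part of these markers in the Lcn2 values was not tested. Traf1, a signalling adaptor of TNF receptors, was at 95.6 CPM in Transformed_7 and 16.6 to 40.6 CPM in the other 4 transformed libraries. It was at 21.3 CPM in Transformed_4 and 12.6 to 21.2 CPM in parental libraries. Stard9, a kinesin, was at 33.3 CPM in Transformed_7 and 12.0 to 20.2 CPM in the others. For Lcn2, Traf1 and Stard9 the transformed and parental ranges overlapped. The pseudogene Gm4735 was low in Transformed_4 and Transformed_7 alike, at 244 and 251 CPM against 420 to 518 CPM in the other 3. Gm13337 was at 6.80 CPM in Transformed_4 and 14.4 to 15.98 CPM in its fellows, and Gm13578 at 6.12 CPM and 10.2 to 12.4 CPM.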

How the data were processed

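The members and gene lists were chosen with earlier results of these data known. The authors deposited raw read counts per Ensembl gene for the 8 libraries. Per the submitters' processing notes, STAR 2.5.3a and featureCounts 1.5.3 were used with mm10 and GRCm38.p5. No source used here gives the annotation release, the strand setting or the treatment of reads with several matches, so counts of paralogs, pseudogenes, overlapping and antisense genes are uncertain. Positions, gene types and transcript GC content came from the GENCODE M21 annotation (GRCm38), to which 53360 of 53465 genes matched. The other 105 held 0.0212% of counts. The count table had 0 columns beyond those of the 8 libraries. Promoters came from RefSeq (GRCm38.p6), with entries for 780 of the 1123 members.

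The CPM minimum of 1 was applied to CPM from library totals. Printed CPM are TMM-scaled, and log2 CPM used a prior count of 2. The test was edgeR 4.0.16's robust quasi-likelihood test (2-sided, in R 4.3.3) on 3 parental and 5 transformed libraries, after filterByExpr and with TMM factors, Benjamini-Hochberg adjustment over 17733 genes and a threshold of 0.05. The common biological coefficient of variation was 0.230. Every pair of libraries differed by more than counting noise (chi-square per degree of freedom of 18.0 or more), so none was merged. A count of 0 allows up to 3 counts, or 0.0596 CPM in Parental_1 and 0.0831 CPM in Transformed_7, for counting error only. Splits left at least 30 genes on a side. Python 3.11.15 with pandas 2.3.3 made the summaries.

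On simulated counts for the 17733 genes of 3 parental against 5 transformed libraries, edgeR recovered 13.4% of genes changed 1.5-fold, 53.7% changed 2-fold and 86.4% changed 4-fold, with 3 false among 105 calls. Each change was set in all 5 transformed libraries, and genes varied independently. These rates therefore do not cover a shift shared by neighbouring genes and absent from Transformed_4.

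Named genes were the 8 lower and 8 higher calls with the smallest p (5 existed), the 8 largest and 8 smallest differences of Transformed_4 from the mean of Transformed_5 to Transformed_8 at a mean of 10 CPM or more, the 3 most abundant members of each list, the genes beside a split and those beside the CPM minimum. The other genes named from lists are their calls, and genes of the stretches were chosen after their values were seen. Alternatives were DESeq2 1.42.0, RLE factors, library totals, no low-count filter, a lane term, lane 6 alone, each library left out, other CPM minimums, prior counts, window widths and references. Removal of the GC trend and protein-coding genes alone, for windows and for Transformed_4, were added after seeing the data.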

Additional observations from a re-analysis of the deposited data

Results flagged for a closer look

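For each value below, 1 of the 5 transformed libraries lay far from the other 4: its gap to the nearest of them, divided by the whole range, passed the critical value of Dixon's test for 5 libraries, which chance alone does in about 1 of 20 groups. Transformed_4 was such a library for the chromosome 2 median (0.058) and for the share of counts on chromosome 2 (7.07%). In 9 of 19 windows it stood apart on the high side, at 0.079 (0 to 10 Mb), 0.060 (30 to 40 Mb), 0.11 (60 to 70 Mb), 0.12 (90 to 100 Mb), 0.012 (120 to 130 Mb), 0.058 (140 to 150 Mb), 0.095 (160 to 170 Mb), 0.145 (170 to 180 Mb) and 0.089 (180 to 190 Mb). Transformed_4 was set apart on chromosome 2 with these values already known, so none of them is evidence, and the chance rate does not apply to them.

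Among 71 named genes, 13 had a library standing apart. Transformed_4 stood apart on the high side, in log2 CPM minus the parental mean, for Bmf (1.93), Gsn (1.17), Fut7 (-0.185), Lrsam1 (-0.46), Stk4 (-0.021) and Tpx2 (-0.070). It stood apart on the low side for Il2ra (-5.06), Il15ra (-0.41), Gm13337 (-0.27), Gm13578 (-0.75) and Gm13772 (0.26). Transformed_7 stood apart on the low side for Psma7 (-0.48), a proteasome subunit, and Snx5 (-0.34), a sorting nexin. Many of these genes were named because Transformed_4 differed, so their number is no finding.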

How the results depend on the processing

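The median of chromosome 2 kept its sign in every transformed library under all 11 alternatives, from 0.024 to 0.072 in Transformed_4 and from -0.32 to -0.20 in Transformed_5 to Transformed_8. The share of windows with all 4 of the latter below 0 ran from 75.7% to 100%. Counts of called genes moved most. Leaving out 1 library gave from 3 to 319 lower and 0 to 19 higher genes, against 38 and 5. DESeq2 gave 131 lower and 17 higher, lane as a covariate 9 and 1, and lane 6 alone 309 and 44. Lower calls among list members went from 11 to 36 in DESeq2. The split step of Transformed_5 went from -0.058 to 0.069 with a minimum of 5 CPM. The median difference of Transformed_4 from its fellows was 0.35 over protein-coding genes. The causes were not tested. Of 21 called genes, 18 missed the threshold in 1 or more of the 13 settings, and 0 changed sign. No paired analysis was possible because the groups share no replicate numbers. Depth limits most the called genes with fewer than 20 counts in a library, which are Cytip, Cybrd1, Prg2, Il1a and Acss1.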

Other observations

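Some chromosome 2 genes below the CPM minimum also passed edgeR's test with all 8 libraries. The cytokine gene Il1b, which neighbours Il1a, had 6, 4 and 1 counts in Parental_1 to Parental_3 and rose to 24, 90, 35, 46 and 31 counts in Transformed_4 to Transformed_8 (edgeR adjusted p = 0.0261). Fmnl2, a formin that builds actin filaments, fell from 21, 38 and 49 counts to 2, 0, 0, 2 and 2 (edgeR adjusted p = 0.0105), and the transcript F730016J06Rik fell from 39, 89 and 72 counts to 10, 2, 2, 1 and 1 (edgeR adjusted p = 0.0105). These 3 were chosen after their values were seen.

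The signalling chains that pair with Il2ra and Il15ra lie on other chromosomes, and for them Transformed_4 stood closer to the other libraries. Il2rb, on chromosome 15, was at 16.9 CPM in Transformed_4, beside 17.2 to 30.5 CPM in parental libraries and 23.4 to 42.1 CPM in Transformed_5 to Transformed_8. Il2rg, on the X chromosome, was at 89.4 CPM in Transformed_4, with 62.5 to 69.0 CPM in parental libraries and 84.6 to 131 CPM in the other transformed ones. Both were chosen after the values of Il2ra were seen.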
